A study of Mus musculus with 35 samples.

Results

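Cell cycle and DNA replication genes were followed in mouse interscapular brown adipose tissue (iBAT) over 5 days of cold. They were 48 genes taken by name, and all 48 were found among the 55421 genes of the count table. By role, 25 act in mitosis or just before it, 18 act in S phase or prepare it, 3 are D-type cyclins, and 2, Stmn1 and Hmgb2, are general markers of proliferating tissue. All 48 were tested, since each had 35 counts or more when all libraries were added up, as had 16928 genes in all. The condition looks at all 35 libraries together, so that genes with few counts in controls passed it on their counts in the cold. Bub1, with 2 counts over the control mice, was such a member.

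The libraries came from 35 male C57BL/6J mice of 9 to 10 weeks, 1 iBAT pad per mouse, with 5 mice in each of 7 groups. Control mice were kept at room temperature (RT, 24 °C), and the other groups were kept at 6 °C for 6 hours or for 1, 2, 3, 4 or 5 days. Cold-exposed mice were housed singly, without nesting material, and all mice ate standard chow. RNA from whole tissue was read from the 3′ ends of transcripts, so a level is a share of tagged transcripts and does not grow with transcript length. Libraries held 3846016 to 6047247 counts. Levels are given in CPM, a count scaled to the size of its library and then by a factor per library (TMM). Before that factor, 1 read was worth 0.165 to 0.26 CPM. Members with few reads are therefore also given as counts summed over a group. In whole tissue, fewer cells of a type and less RNA per cell cannot be told apart. Ucp1, which defines brown adipocytes, and Adipoq, a marker of adipocytes in general, were detected in every library. Against RT, Ucp1 was called higher and Adipoq lower in every cold group. The sum of 7 brown adipocyte markers, which covers both directions, was 15060 to 19150 CPM in controls and 17530 to 31950 CPM in the cold.

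A cell that enters the cycle first raises D-type cyclins, which activate CDK4 and CDK6 and release E2F factors from the retinoblastoma protein. E2F factors turn on genes for S phase, among them the MCM helicase that licenses replication origins and the enzymes that make deoxynucleotides. Later in the cycle CDK1 with cyclin A and cyclin B drives mitosis, and most mitotic genes are transcribed together through a short promoter element named CHR, bound by the MuvB complex, and through nearby CCAAT boxes bound by NF-Y. Mature brown adipocytes rarely divide, and new ones come from stromal progenitors that proliferate in the cold. Dividing immune and endothelial cells express the same genes.

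A few promoters are shown before the values, because some of the letters they hold differ between the roles. Windows of 300 bases, from 250 before to 50 after each transcription start, were taken from RefSeq on GRCm38.p6, where 38 of the 48 genes had one. Each was searched on both strands for TTTGAA (the CHR letters), CCAAT (the NF-Y box) and TTCCCGC or TTGGCGC (an E2F core). Of 21 mitosis genes with a window, 15 (71.4%) held the CHR letters and 18 (85.7%) a CCAAT, against 17.9% and 37.4% of all 32851 windows. All 15 with the CHR letters also held a CCAAT, a pair found in 6.95% of all windows. Of 15 S phase genes, 1 (6.67%), Mcm2, held the CHR letters and 9 (60.0%) a CCAAT, so CCAAT was more frequent than in all windows in both roles. An E2F core was held by 8 (53.3%) of the S phase genes, 3 (14.3%) of the mitosis genes and 6.81% of all windows. A gene with several windows was counted once, and was given a match where any window had it. These are matches of letters and were not tested. The 3 mitosis genes with the most counts are shown first, 5′ to 3′ along the gene, with matches on either strand in capitals (ATTGG is CCAAT on the other strand, and TTCAAA is TTTGAA).
Top2a, chr11:99024140-99024439, minus strand: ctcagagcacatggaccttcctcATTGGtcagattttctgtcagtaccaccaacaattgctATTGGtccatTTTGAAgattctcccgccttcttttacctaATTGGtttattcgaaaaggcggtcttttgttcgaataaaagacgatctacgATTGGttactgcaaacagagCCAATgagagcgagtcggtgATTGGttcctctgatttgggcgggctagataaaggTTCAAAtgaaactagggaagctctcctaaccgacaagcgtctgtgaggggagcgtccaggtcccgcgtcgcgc
Cenpa, chr5:30666636-30666935, plus strand: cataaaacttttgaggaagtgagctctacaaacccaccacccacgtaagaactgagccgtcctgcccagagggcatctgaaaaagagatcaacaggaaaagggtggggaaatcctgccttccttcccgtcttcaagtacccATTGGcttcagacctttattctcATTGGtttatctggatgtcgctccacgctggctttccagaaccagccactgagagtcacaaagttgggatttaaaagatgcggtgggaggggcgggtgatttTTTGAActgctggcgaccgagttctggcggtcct
Mki67, chr7:135716330-135716629, minus strand: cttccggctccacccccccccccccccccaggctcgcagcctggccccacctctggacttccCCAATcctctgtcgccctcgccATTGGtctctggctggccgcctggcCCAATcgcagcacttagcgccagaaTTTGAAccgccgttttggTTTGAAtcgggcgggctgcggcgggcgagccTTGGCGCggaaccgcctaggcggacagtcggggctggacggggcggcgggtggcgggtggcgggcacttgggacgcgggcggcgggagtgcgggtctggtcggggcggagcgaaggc
The 3 S phase genes with the most counts hold no CHR letters in these windows, and Pcna holds no E2F core either. Mcm7 has a second window, not shown, and its last capitals are an E2F core and a CCAAT that overlap.
Rrm1, chr7:102441445-102441744, plus strand: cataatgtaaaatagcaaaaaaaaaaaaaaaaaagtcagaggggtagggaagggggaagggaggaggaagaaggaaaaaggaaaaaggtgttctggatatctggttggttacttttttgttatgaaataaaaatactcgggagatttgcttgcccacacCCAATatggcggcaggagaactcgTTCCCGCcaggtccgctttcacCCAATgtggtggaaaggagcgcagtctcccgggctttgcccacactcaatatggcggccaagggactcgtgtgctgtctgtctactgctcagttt
Mcm7, chr5:138171834-138172133, minus strand: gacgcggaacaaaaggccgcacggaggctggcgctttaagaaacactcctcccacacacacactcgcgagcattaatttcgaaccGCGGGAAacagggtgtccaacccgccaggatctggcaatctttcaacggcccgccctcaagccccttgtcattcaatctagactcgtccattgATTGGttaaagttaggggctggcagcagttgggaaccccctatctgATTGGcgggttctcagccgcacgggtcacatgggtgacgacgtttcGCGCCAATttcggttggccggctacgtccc
Pcna, chr2:132253131-132253430, minus strand: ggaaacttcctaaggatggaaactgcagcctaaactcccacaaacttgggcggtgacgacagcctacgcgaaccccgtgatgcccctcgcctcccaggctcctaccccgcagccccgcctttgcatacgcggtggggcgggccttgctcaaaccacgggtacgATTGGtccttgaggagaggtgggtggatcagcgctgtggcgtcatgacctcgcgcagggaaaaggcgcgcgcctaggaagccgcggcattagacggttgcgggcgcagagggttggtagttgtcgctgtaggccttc

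Summed over the 25 mitosis genes, expression was lower than in controls for the first day and higher from the third day on. The sum was 26.2, 29.0, 31.1, 28.4 and 31.3 CPM in the 5 control mice. It was 15.9, 13.8, 12.4, 14.5 and 17.3 CPM after 6 hours, and 19.3, 16.4, 12.7, 20.4 and 22.3 CPM after 1 day. All 10 of these cold-exposed mice lay below every control, with a mean 1.98-fold lower after 6 hours and 1.6-fold lower after 1 day. After 2 days the mice were spread from 19.7 to 116 CPM, with 3 above all controls, 1 below all of them and 1 among them. After 3 days the sum was 101, 60.3, 91.8, 114 and 72.3 CPM, after 4 days 88.1, 144, 149, 50.3 and 68.7 CPM, and after 5 days 110, 78.2, 39.2, 76.3 and 123 CPM. Every mouse of the last 3 groups lay above every control. The mean was 87.7 ± 21.5 (SD, n = 5) CPM after 3 days, 100 ± 44.4 after 4 days and 85.4 ± 32.8 after 5 days, against 29.2 ± 2.11 in controls, or 3.0-fold, 3.42-fold and 2.92-fold higher. No p is given for a sum. Behind these values lay 137 to 176 counts per control mouse and 56 to 95 per mouse after 6 hours.

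**Figure D1:**
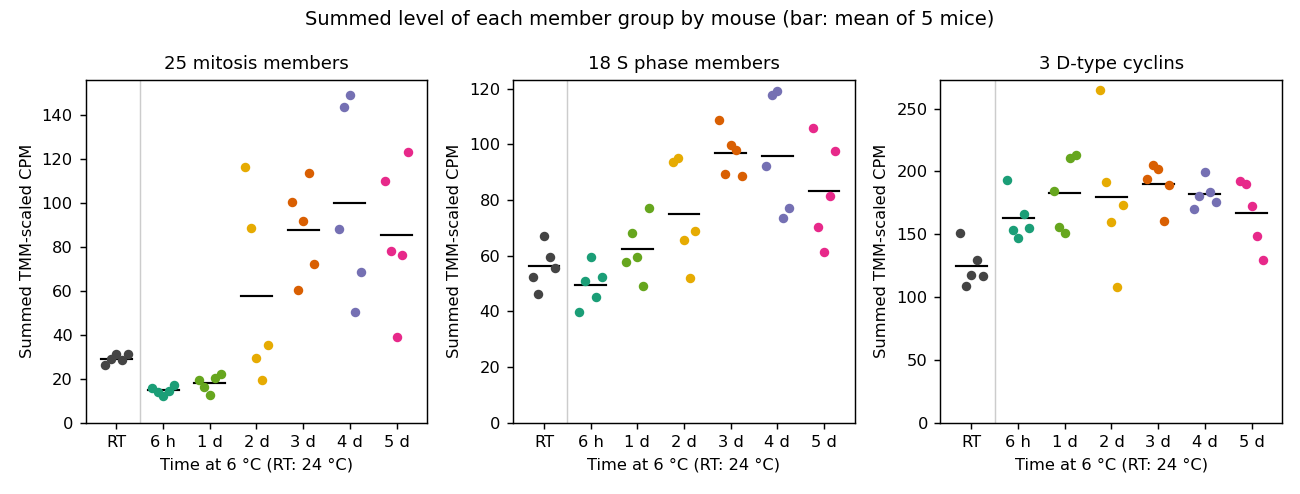
Summed CPM of the mitosis, S phase and D-type cyclin genes (y axes) in each of 35 mice by group (x axis), with 1 point per mouse and a bar at each group's mean. The mitosis sum lies at 12.4 to 17.3 CPM after 6 hours, below all controls, and at 50.3 to 149 CPM after 4 days, above all of them.

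The S phase sum overlapped the control range for the first 2 days and was mostly above it from the third. It was 52.4, 46.2, 67.1, 59.6 and 55.7 CPM in controls. After 6 hours it was 39.9, 50.9, 59.5, 45.2 and 52.4 CPM, a range that overlaps that of the controls, with 2 mice below all of them. After 1 day it was 49.23 to 76.95 CPM, with 2 mice above all controls and a mean 1.11-fold higher. After 2 days it was 51.89 to 94.95 CPM, with 3 mice above all controls and a mean 1.33-fold higher. After 3 days it was 109, 89.2, 99.9, 98.0 and 88.7 CPM, with all 5 mice above all controls and a mean 1.72-fold higher. After 4 days the range was 73.5 to 119 CPM and the mean 1.71-fold higher, and after 5 days 61.5 to 106 CPM and 1.48-fold higher, with 4 of 5 mice above all controls. The ratio of the mitosis sum to the S phase sum, a median of 0.5 (0.464 to 0.628) in controls, was 0.321 (0.208 to 0.399) after 6 hours and 0.289 (0.212 to 0.414) after 1 day. After 3, 4 and 5 days it was 0.919 (0.675 to 1.16), 0.956 (0.685 to 1.25) and 1.04 (0.638 to 1.26), so that no mouse of these groups overlapped the controls. Rrm1 alone held 28.3% of the S phase counts and Top2a 18.4% of the mitosis counts.

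Mice of one group were spread more widely in mitosis genes after 2, 4 and 5 days than before. The highest mouse exceeded the lowest 1.19-fold in controls, 1.39-fold after 6 hours and 1.76-fold after 1 day, but 5.91-fold after 2 days, 1.89-fold after 3 days, 2.96-fold after 4 days and 3.14-fold after 5 days. For S phase genes the same ratio stayed between 1.23 and 1.83. After 4 days the mice stood in the same order by both sums, mouse 3 highest and mouse 4 lowest, and after 2 days mice 1 and 2 were the highest and mouse 4 the lowest by both.

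Comparisons were made gene by gene with edgeR's quasi-likelihood test, and a gene is called where its Benjamini-Hochberg adjusted p over all 16928 genes was below 0.05. All 6 comparisons with RT share the same 5 control mice. After 6 hours in the cold, a few genes of mitosis and S phase fell and cyclins D1 and D3 rose. Of the 48 genes 7 (14.6%) were called lower, a share near the 13.1% of all genes tested, and 2 were called higher, where 15.2% of all genes were. By role, 4 mitosis genes (Cenpa, Cdk1, Ccnb1 and Ube2c) and 3 S phase genes (Mcm7, Rrm2 and Tk1) fell, and Ccnd1 and Ccnd3 rose. The median log2 fold change was -0.51 over the mitosis genes and -0.49 over the S phase genes, against -0.09 over all genes tested. These medians were the same when Tk1, at 0 counts in the cold, was set at its bound and when Bub1, with no more than 3 counts in either group, was left out. The median of all genes depended on how many low genes were kept: -0.03 with a filter that drops them and -0.22 with no filter. Many members are low, and no set of genes of like level was compared. The other medians of all genes given below have the same limit.

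Cenpa, the histone H3 variant that marks centromeres, had the smallest adjusted p of those that fell. It had 6.89, 7.11, 9.43, 10.6 and 8.0 CPM in controls and 3.13, 1.15, 1.33, 1.17 and 2.54 CPM after 6 hours. The groups did not overlap, and the log2 fold change was -2.13 ± 0.28 (SE, adjusted p = 2.95e-06), or 4.39-fold lower. After 1 day it had 4.50, 4.63, 2.57, 3.40 and 5.10 CPM, still below every control (log2 fold change -1.06 ± 0.23, adjusted p = 0.00143). It was also lower after 2 days (-0.88 ± 0.22, adjusted p = 0.00716), when all other called mitosis genes were higher, and it was near its control level after 4 days (-0.00 ± 0.18, adjusted p = 0.996). Without Cenpa, an alternative chosen after seeing its values, the mitosis sum was 17.8 to 23.3 CPM in controls, 11.1 to 14.7 CPM after 6 hours and 10.1 to 17.2 CPM after 1 day, again with all 10 mice below every control.

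Mcm7, a subunit of the replicative helicase, had 14.2, 11.2, 15.6, 14.5 and 12.8 CPM in controls and 8.34, 7.83, 8.19, 4.45 and 4.36 CPM after 6 hours, without overlap. Its log2 fold change was -1.03 ± 0.20 (adjusted p = 0.000308). Cdk1, the kinase that drives entry into mitosis, had 0.439 to 1.68 CPM in controls and 0 to 0.521 CPM after 6 hours (log2 fold change -2.10 ± 0.71, adjusted p = 0.0297). That call was lost in 6 of the 10 fits that left out 1 mouse. The remaining 4 genes had so few counts after 6 hours that a ratio of counts with its 95% counting interval is given, which covers counting error only. Ccnb1, cyclin B1, had 2 counts over the 5 cold mice against 24 over the controls, a ratio of 0.0997 (0.0114 to 0.402; adjusted p = 0.0205). Ube2c, the ubiquitin-conjugating enzyme of the anaphase-promoting complex, had 2 against 33, a ratio of 0.0725 (0.00843 to 0.283; adjusted p = 0.00857). Its groups overlapped, since 1 control mouse had none, and those of Ccnb1 overlapped in mouse 5 after 6 hours. Rrm2, the regulated subunit of ribonucleotide reductase, had 2 against 20, a ratio of 0.12 (0.0136 to 0.492; adjusted p = 0.0289, lost in 6 of 10 such fits). Tk1, thymidine kinase, had 0 against 11 counts, which is at least 3.07-fold lower with 3 counts over the group as the floor (adjusted p = 0.0183).

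Not every S phase gene followed. Rrm1, the large subunit of ribonucleotide reductase, had 9.12 to 24.6 CPM after 6 hours against 9.78 to 16.4 CPM in controls, and after 1 day 17.6, 20.6, 22.9, 15.5 and 27.1 CPM against 13.8, 11.0, 16.4, 16.2 and 9.78 CPM. After 1 day 4 of 5 mice lay above every control, and the log2 fold change was 0.63 ± 0.18 (adjusted p = 0.0115). Tyms, thymidylate synthase, had 6.00, 6.95, 5.13, 6.06 and 11.4 CPM after 1 day against 2.10, 5.05, 3.51, 3.59 and 2.13 CPM in controls. Its groups did not overlap and its log2 fold change was 1.10 ± 0.28 (adjusted p = 0.00667). Rrm2, the partner of Rrm1 in the same enzyme, had 6, 0, 0, 0 and 1 counts after 1 day against 2, 2, 4, 6 and 6 in controls.

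After 1 day in all, 3 members were called higher (Rrm1, Tyms and Ccnd1), where 12.4% of all genes were. A further 5 were called lower (Ccnb1, Cdk1, Cenpa, Uhrf1 and Hmgb2), a share near the 11.2% of all genes. The median over the mitosis genes was -0.66 and that over the S phase genes -0.03, against -0.06 over all genes tested. Ccnb1 had 1 count over the 5 mice against 24, a ratio of 0.0476 (0.00116 to 0.292; adjusted p = 0.00925). Hmgb2, a chromatin protein abundant in dividing cells, had 2.62, 2.32, 2.20, 2.42 and 0.927 CPM against 3.07 to 5.51 CPM in controls, without overlap (log2 fold change -1.06 ± 0.31, adjusted p = 0.015). For Cdk1 (-2.20 ± 0.71, adjusted p = 0.0294) and Uhrf1, which helps to copy DNA methylation (-2.52 ± 0.91, adjusted p = 0.0494), the call was lost in 7 of 10 fits without 1 mouse.

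Levels of some cell type markers moved over the same hours. The sum of 5 mural cell markers was 345 to 370 CPM in controls, 272 to 330 CPM after 6 hours and 206 to 254 CPM after 1 day, below every control in all 10 mice. Rgs5 alone held 81.6% of these counts, so the mural sum follows mainly that gene. The sum of 9 stromal markers was 497 to 738 CPM in controls and 356 to 482 CPM after 1 day, below every control in all 5 mice. That of 7 endothelial markers was 284 to 351 CPM in controls, 465 to 561 CPM after 6 hours and 560 to 636 CPM after 1 day, above every control. Dcn held 40.5% of the stromal counts and Kdr 47.1% of the endothelial ones. The part of these cells in the lower mitosis sum was not tested.

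D-type cyclins went the other way, through Ccnd1, which rose at every time. Ccnd1, cyclin D1, had 16.4, 6.55, 10.3, 9.63 and 8.72 CPM in controls. It had 45.3, 31.8, 32.8, 45.7 and 31.4 CPM after 6 hours and 74.6, 53.3, 43.1, 68.2 and 76.5 CPM after 1 day. In each cold group every mouse lay above every control. The log2 fold change was 1.88 ± 0.18 after 6 hours (adjusted p = 3.03e-08), 2.61 ± 0.21 after 1 day (adjusted p = 1.08e-08) and 2.25 to 2.51 from 2 to 5 days, or 4.77-fold to 5.71-fold. Its lowest value in the cold was 21.2 CPM, in mouse 4 after 2 days, which was also the mouse with the lowest mitosis sum of that group. Ccnd3, cyclin D3, had 65.1, 45.4, 46.7, 53.2 and 59.8 CPM after 6 hours against 47.6, 32.6, 33.8, 50.4 and 36.3 CPM in controls, with overlap, and rose in that comparison alone (log2 fold change 0.45 ± 0.14, adjusted p = 0.016). Ccnd2, cyclin D2, the member with the most counts of its group, was called after 3 days alone (0.35 ± 0.11, adjusted p = 0.0284), when 3 of 5 mice lay above every control, and that call was lost in 5 of 10 fits without 1 mouse. Ccnd1 shares at least 20% of the 50-base words of its last 400 bases with LTO1, its neighbour on the other strand, so its reads could be split or shared with it.

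**Figure D2:**
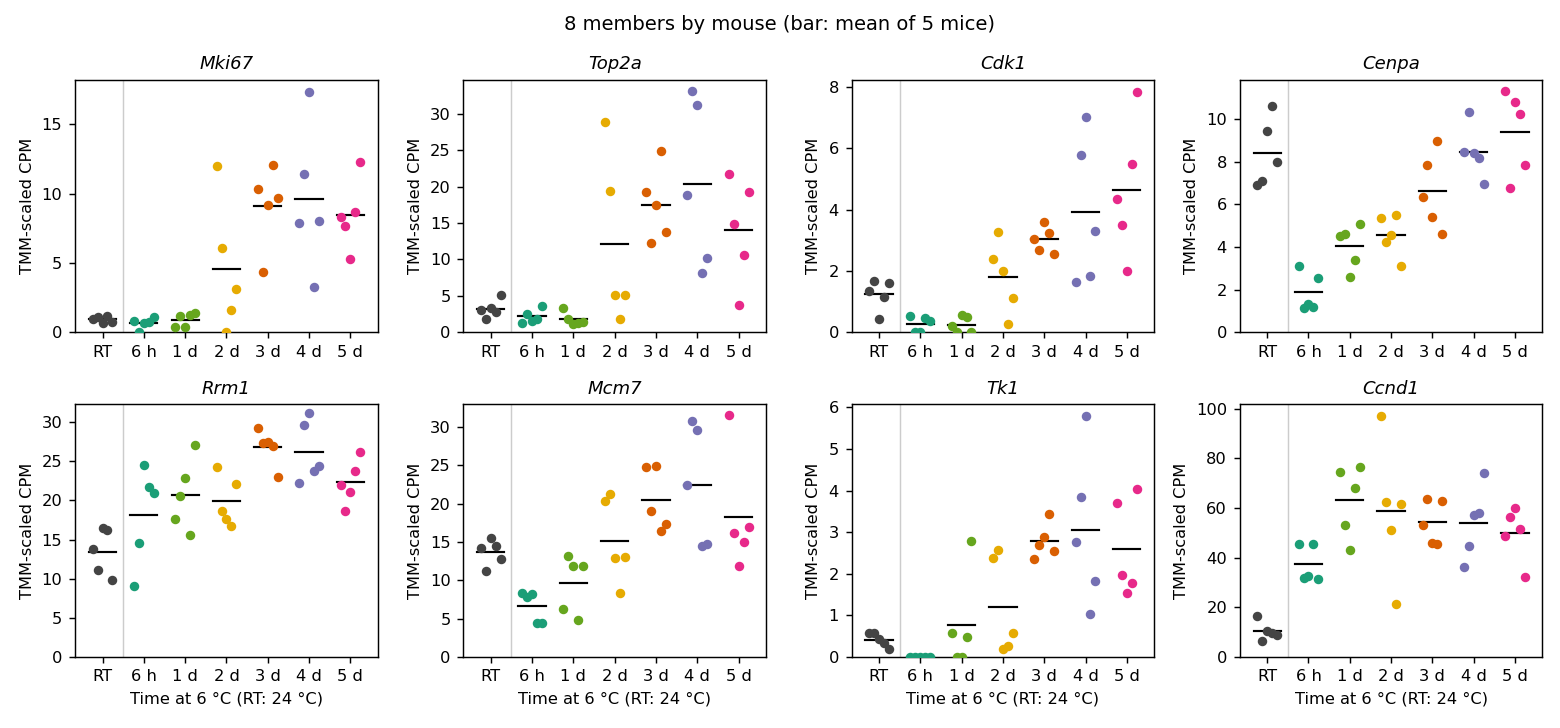
CPM (y axes) of Mki67, Top2a, Cdk1, Cenpa, Rrm1, Mcm7, Tk1 and Ccnd1 in each of 35 mice by group (x axes), with 1 point per mouse and a bar at each group's mean. Cenpa, Mcm7 and Tk1 lie below all controls after 6 hours, while Ccnd1 lies above all controls in every cold group.

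After 2 days the group was split. Of the 48 genes, 9 were called higher, where 10.9% of all genes were: Top2a, Mki67, Birc5, Cdc20, Plk1 and Cenpf of mitosis, Mcm5 and Rrm1 of S phase, and Ccnd1. Cenpa alone was called lower, where 9.36% of all genes were. Top2a, the topoisomerase that untangles chromosomes, had 28.9 and 19.4 CPM in mice 1 and 2, but 5.08, 1.83 and 5.09 CPM in the others, which lie within or below the 1.87 to 5.16 CPM of the controls (log2 fold change 1.94 ± 0.51, adjusted p = 0.0102). Mki67, the proliferation antigen Ki-67, had 12.0 and 6.08 CPM in mice 1 and 2 and 0, 1.57 and 3.11 CPM in the others, against 0.658 to 1.14 CPM in controls. Cdc20, which activates the anaphase-promoting complex, was above every control in all 5 mice, at 5.94, 4.68, 1.09, 1.57 and 2.26 CPM against 0 to 0.765 CPM (log2 fold change 2.54 ± 0.59, adjusted p = 0.00424).

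Without mice 1 and 2, an alternative chosen after seeing their values, Ccnd1 alone of those 9 genes was called higher. The log2 fold change of Top2a was then 0.32, that of Mki67 0.64, that of Cdc20 1.57 and that of Cenpf 1.76. Mice 1 and 2 were also the mice of their group with the most macrophage RNA. The sum of 11 macrophage and monocyte markers was 495 and 287 CPM in them and 56.8, 64.2 and 82.3 CPM in mice 3, 4 and 5, against 49.8 to 125 CPM in controls.

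From 3 days on, many mitosis genes rose, from cyclins and kinases to kinetochore and central spindle proteins, and some S phase genes rose with them. After 3 days 25 of the 48 genes were called higher, where 13.0% of all genes were, and after 4 days 24, where 14.7% were. After 5 days 19 were called higher, where 14.4% were. No member was called lower by edgeR or DESeq2 in any of these comparisons, and 0 had an unadjusted p below 0.05 in that direction, where 11.7%, 15.0% and 15.5% of all genes were called lower. Mitosis genes made up 14, 16 and 13 of those called, S phase genes 9, 7 and 5, and D-type cyclins the rest. The median log2 fold change of the mitosis genes was 1.92, 2.19 and 1.57, that of the S phase genes 0.64, 0.63 and 0.37, and that of all genes tested -0.07, -0.08 and -0.10.

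Plk1, the kinase that directs spindle assembly and exit from mitosis, had the largest change after 4 days. It had 1.84, 5.78, 5.26, 1.43 and 0.730 CPM against 0 to 0.658 CPM in controls, a log2 fold change of 3.61 ± 0.70 (adjusted p = 0.000506), or 12.2-fold. The control mice had 1, 1, 3, 1 and 0 counts of Plk1, so its fold and rank rest on few reads. Mki67 had 0.957, 1.12, 0.658, 1.14 and 0.712 CPM in controls. It had 10.3, 4.35, 9.16, 12.1 and 9.71 CPM after 3 days, 7.89, 11.4, 17.4, 3.27 and 8.03 CPM after 4 days, and 8.29, 7.67, 5.29, 8.65 and 12.3 CPM after 5 days. All 15 mice lay above every control, and Mki67 had the largest change of the mitosis genes after 3 days (log2 fold change 3.25 ± 0.32, adjusted p = 2.25e-07), or 9.54-fold. It was 10.1-fold higher after 4 days (adjusted p = 1.67e-06) and 8.83-fold higher after 5 days (adjusted p = 5.08e-08). Top2a had 3.06, 1.87, 3.29, 2.77 and 5.16 CPM in controls. After 3 days it had 19.2, 12.2, 17.4, 24.9 and 13.8 CPM, after 4 days 18.9, 33.1, 31.2, 8.18 and 10.2 CPM, and after 5 days 21.8, 14.9, 3.74, 10.6 and 19.3 CPM. Of these mice, mouse 3 of the 5-day group lay within the control range, and the fold was 5.37 (adjusted p = 3.17e-07), 6.24 (adjusted p = 8.14e-06) and 4.3 (adjusted p = 3.77e-05). Cdc20 had the largest change after 5 days, at 9.16, 5.04, 1.32, 2.36 and 6.64 CPM, each above every control (log2 fold change 3.16 ± 0.55, adjusted p = 9.35e-05).

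Other mitosis genes rose with them. Among kinases and cyclins, Ccna2 (cyclin A2) rose 6.4-fold, 7.23-fold and 5.22-fold after 3, 4 and 5 days, Cdk1 2.38-fold, 3.08-fold and 3.63-fold, and Ccnb2 (cyclin B2) 6.9-fold and 4.55-fold after 3 and 4 days. Among kinetochore and spindle proteins, Cenpf rose 8.92-fold, 8.39-fold and 6.49-fold, Cenpe, a kinetochore motor, 3.4-fold, 4.56-fold and 3.64-fold, and Tpx2, which activates Aurora A, 5.04-fold, 5.27-fold and 5.3-fold. Birc5 (survivin), of the chromosomal passenger complex, rose 7.11-fold, 10.2-fold and 7.91-fold, and Prc1, which bundles the central spindle, 3.79-fold, 3.67-fold and 2.82-fold. In the control mice Birc5 had 1, 1, 1, 5 and 1 counts and Ccna2 4, 0, 2, 0 and 1, so the folds of these genes rest on few reads. Kif23, a motor of the central spindle, was called after 4 days alone, at 3.12, 8.41, 5.78, 3.07 and 2.74 CPM against 0.191 to 2.41 CPM in controls (log2 fold change 1.71 ± 0.44, adjusted p = 0.00551). Ube2c was called after 5 days (1.57 ± 0.45, adjusted p = 0.0105). The calls of Hmmr after 3 days and of Nusap1 after 5 days were each lost in 8 of 10 fits without 1 mouse.

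Some mitosis genes were not called higher in any comparison with RT. Ccnb1, which had fallen early, had 0 to 4.03 CPM after 4 days against 0.326 to 2.25 CPM in controls (log2 fold change 0.87 ± 0.69, adjusted p = 0.363). It shares words of its last 400 bases with Ccnb1-ps, so its reads may be shared with that gene. Aurkb and the checkpoint genes Bub1b and Mad2l1 were not called either, and Bub1 had 13 counts against 2 after 4 days, a ratio of 6.42 (1.45 to 58.6).

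**Figure D3:**
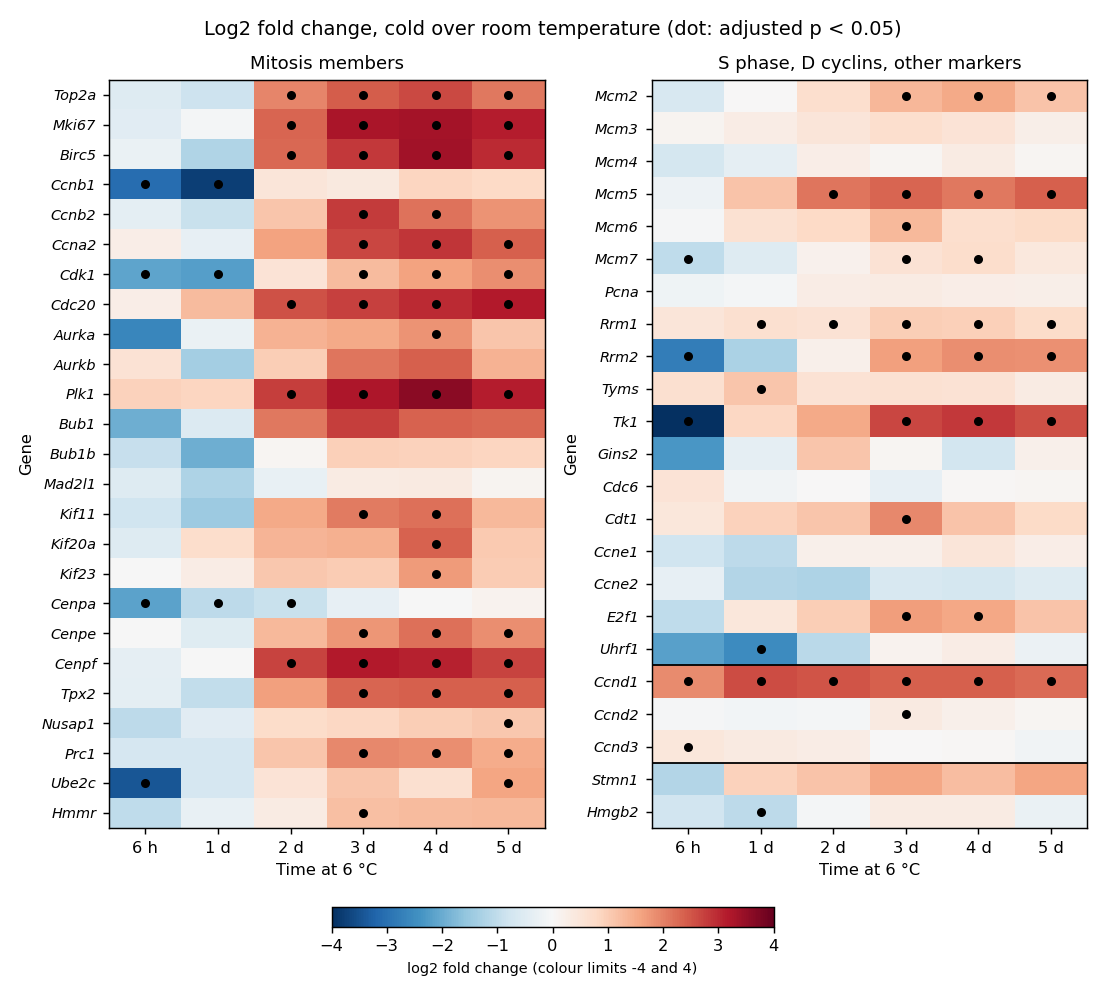
Log2 fold change (colour) of each of the 48 genes (rows, grouped by role) at each time in the cold over RT (columns), with a dot where the gene was called; colours stop at -4 and 4, and those of genes with 3 or fewer counts in a group depend on the fit's prior count. Dots lie on lower mitosis genes at 6 hours and 1 day and on higher ones from 2 days on, with Cenpa lower at 2 days.

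Of the 18 S phase genes, 9, 7 and 5 rose after 3, 4 and 5 days, and the largest change was that of Tk1. Tk1 had 0.574, 0.561, 0.439, 0.326 and 0.178 CPM in controls, and no read in any mouse after 6 hours. It had 2.34, 2.69, 2.88, 3.44 and 2.56 CPM after 3 days, 2.75, 3.85, 5.78, 1.02 and 1.83 CPM after 4 days and 3.71, 1.97, 1.54, 1.77 and 4.03 CPM after 5 days. All 15 mice lay above every control, and the fold was 6.44 (adjusted p = 0.000165), 7.09 (adjusted p = 0.000387) and 5.99 (adjusted p = 0.00055). Rrm1 had 29.3, 27.3, 27.5, 27.0 and 23.0 CPM after 3 days, also above every control, a log2 fold change of 0.99 ± 0.15 (adjusted p = 4.26e-05). It stayed 1.94-fold higher after 4 days (adjusted p = 9.82e-05) and 1.65-fold higher after 5 days (adjusted p = 0.00121). Rrm2 rose 3.11-fold, 3.66-fold and 3.57-fold.

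The helicase subunits did not rise alike. Mcm5 rose 5.06-fold, 4.29-fold and 5.22-fold after 3, 4 and 5 days, from 0 to 0.889 CPM in controls, and Mcm2 2.5-fold, 2.86-fold and 2.18-fold. Mcm7 had 22.4, 30.8, 29.6, 14.5 and 14.8 CPM after 4 days against 11.2 to 15.6 CPM in controls, with overlap (log2 fold change 0.71 ± 0.20, adjusted p = 0.00905), and it was not called after 5 days. Mcm6 was called after 3 days alone (1.29 ± 0.30, adjusted p = 0.00279), while Mcm3 and Mcm4 were not called in any comparison. After 4 days Mcm3 had 3.10 to 7.18 CPM against 2.61 to 5.16 CPM (log2 fold change 0.54 ± 0.27, adjusted p = 0.144) and Mcm4 1.83 to 4.73 CPM against 1.79 to 3.02 CPM (0.34 ± 0.34, adjusted p = 0.487). Differences between subunits were not tested. Of the factors that load or steer the helicase, Cdt1 was called after 3 days (3.81-fold) and E2f1, an activating E2F, after 3 and 4 days (3.18-fold and 2.9-fold), while Cdc6 and Gins2 were not called at any time.

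Pcna, the sliding clamp of the DNA polymerases and a common S phase marker, was not called in any comparison. It had 4.97, 4.68, 9.65, 6.04 and 7.29 CPM in controls and 9.00, 8.23, 7.18, 7.98 and 7.12 CPM after 4 days, with overlap (log2 fold change 0.27 ± 0.21, adjusted p = 0.355). The cyclin E genes Ccne1 and Ccne2 were not called either. Ccne1 had 1.02 to 3.33 CPM after 4 days against 0.936 to 2.45 CPM, and Ccne2 0.701 to 1.47 CPM against 0.749 to 2.63 CPM. Of the general markers, Stmn1, a microtubule-destabilising protein, had 0.183 to 4.03 CPM after 4 days against 0 to 1.5 CPM (adjusted p = 0.197), and Hmgb2 had 2.25 to 8.63 CPM against 3.07 to 5.51 CPM (adjusted p = 0.458). Pcna, Stmn1, Hmgb2 and Mcm7 each share at least 20% of the 50-base words of their last 400 bases with another gene, so their counts are uncertain to that extent.

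Macrophage markers and mitosis genes were high in many of the same mice, but not in all. The macrophage sum was 546, 97.1, 459, 334 and 173 CPM after 3 days, 361, 386, 352, 60.8 and 70.3 CPM after 4 days and 263, 138, 76.0, 198 and 372 CPM after 5 days. Of its 11 markers, 8, 6 and 4 were called higher, where 13.0%, 14.7% and 14.4% of all genes were. Lgals3 alone held 38.1% of the macrophage counts. The defining markers Adgre1 and Csf1r were detected in every group. In mouse 5 of the 2-day group, mouse 2 of the 3-day group, mice 4 and 5 of the 4-day group and mouse 3 of the 5-day group, the macrophage sum was inside the control range. That range was 49.8 to 125 CPM, with control mouse 5 at its top, and each of these macrophage sums was above the control median of 58.4 CPM. The mitosis sums of these mice were 35.4, 60.3, 50.3, 68.7 and 39.2 CPM, above the 31.3 CPM of the highest control. The sum of 7 dendritic markers was 61.03 to 83.07 CPM in controls and 35.6 to 91.47 CPM after 4 days. In that group 2 mice lay above and 2 below all controls, in the same order as by the mitosis sum. The orders differed after 2, 3 and 5 days. H2-Ab1 held 39.1% of the dendritic counts. In the paper's single-cell data, immune cells dividing in the cold were mostly dendritic cells and not recruited macrophages. Stromal, endothelial and brown adipocyte cells can also divide, and which cells the mitosis reads came from was not tested.

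**Figure D4:**
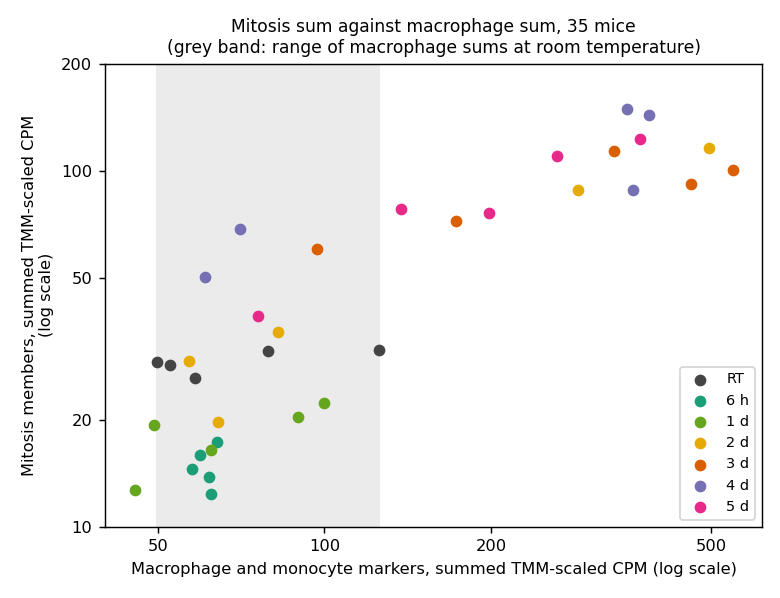
Summed CPM of the mitosis genes (y axis, log scale) against that of 11 macrophage and monocyte markers (x axis, log scale) in each of 35 mice, coloured by group, with a grey band over the controls' macrophage sums. Mice 4 and 5 after 4 days stand at a macrophage sum of 60.8 and 70.3 CPM, within the control range, with mitosis sums of 50.3 and 68.7 CPM above all controls.

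Between cold groups, the 3-day mice were compared with the 1-day mice directly, without the control mice. After 3 days 21 members were higher than after 1 day, where 4.99% of all genes were, and none was lower by edgeR or DESeq2, where 3.35% of all genes were. At an unadjusted p below 0.05 there were 36 higher and 0 lower. Of the 21, 16 were mitosis genes, with a median of 2.92 over all 25. Cdk1 had 0.187, 0, 0.550, 0.485 and 0 CPM after 1 day and 3.05, 2.69, 3.59, 3.25 and 2.56 CPM after 3 days, without overlap (log2 fold change 3.46 ± 0.58, adjusted p = 0.000492). Top2a rose 9.61-fold between these days (adjusted p = 2.36e-07) and Mki67 10.4-fold (adjusted p = 7.99e-06). Ccnb1 had 1 count over the 5 mice after 1 day and was above all of them in every mouse after 3 days (adjusted p = 0.00931). Of the S phase genes 3 were called: Mcm7 (1.11 ± 0.22, adjusted p = 0.00258), Rrm2 (2.92 ± 0.74, adjusted p = 0.0152) and Uhrf1 (2.70 ± 0.75, adjusted p = 0.0276). Ccnd1, already high after 1 day, was not among them, whereas Ccnd2 and Hmgb2 were.

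After 5 days against 3 days, no member was called in either direction by edgeR or DESeq2, where 0.892% of all genes were called higher and 0.561% lower. An unadjusted p below 0.05 was reached by 1 higher member, Cenpa (log2 fold change 0.48 ± 0.23), and 2 lower ones, Cdt1 (-1.17 ± 0.47) and Hmgb2 (-0.60 ± 0.28), with adjusted p = 0.322, 0.222 and 0.307. The median over the 48 genes was -0.13.

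Upstream of these genes, the inhibitors of cyclin-dependent kinases moved in opposite directions, and did so at every time. Cdkn1a, which encodes p21, a target of p53 and of stress signals, had 32.7, 55.0, 42.8, 31.2 and 26.1 CPM in controls and 557, 573, 370, 492 and 532 CPM after 6 hours. Its log2 fold change was 3.78 ± 0.17 (adjusted p = 8.3e-14), or 13.7-fold. After 4 days it had 138, 194, 162, 111 and 118 CPM, and its lowest log2 fold change was the 1.94 ± 0.18 (adjusted p = 7.88e-08) of that group. After 4 days both Cdkn1a and the mitosis sum were above all controls. These are levels in whole tissue, and a relation between them was not tested. From 1 day to 3 days Cdkn1a fell by 1.06 on the log2 scale (adjusted p = 3.65e-05). Cdkn1b (p27) had 26.2, 35.7, 24.6, 26.9 and 32.4 CPM in controls and 14.3, 16.8, 19.0, 14.5 and 14.0 CPM after 6 hours, and was lower at every time, with log2 fold changes of -0.97 to -0.76. Cdkn2c (p18), an inhibitor of CDK4 and CDK6, was also lower at every time, with log2 fold changes of -1.02 to -0.49. Cdkn1c (p57) was lower from 3 days on (-0.55, -0.91 and -0.99), and Cdkn2d (p19) after 6 hours (-1.20 ± 0.27, adjusted p = 0.00122).

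**Figure D5:**
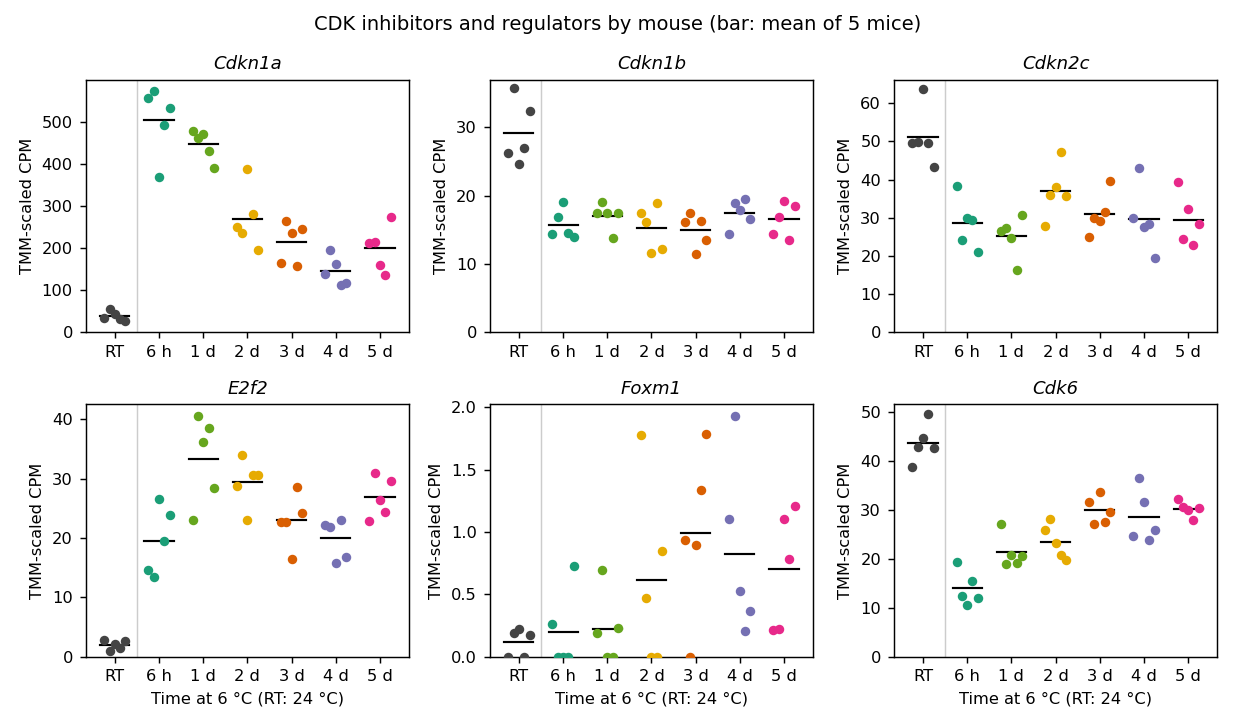
CPM (y axes) of Cdkn1a, Cdkn1b, Cdkn2c, E2f2, Foxm1 and Cdk6 in each of 35 mice by group (x axes), with 1 point per mouse and a bar at each group's mean. Cdkn1a and E2f2 lie above all controls in every cold group, and Cdkn1b and Cdk6 below all controls.

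Of 32 other regulators of the cycle, 4 (12.5%) were called higher and 7 (21.9%) lower after 6 hours, where 15.2% and 13.1% of all genes were, and 6 (18.8%) in each direction after 4 days, where 14.7% and 15.0% were. E2f2, an activating E2F, had 2.87, 0.936, 2.19, 1.47 and 2.67 CPM in controls and 14.6, 13.4, 26.6, 19.4 and 23.8 CPM after 6 hours (log2 fold change 3.30 ± 0.26, adjusted p = 7.24e-10). It was still 3.28 higher on the log2 scale after 4 days. The E2F partner Tfdp1 (0.84) and Ccng2 (0.78) also rose after 6 hours. Cdk6, a partner of the D-type cyclins, had 38.8, 42.9, 44.7, 49.6 and 42.7 CPM in controls and 19.3, 12.4, 10.6, 15.5 and 12.0 CPM after 6 hours (log2 fold change -1.63 ± 0.15, adjusted p = 5.82e-09). Thus the cyclin Ccnd1 rose while Cdk6 fell. Cdk4, the other kinase of the D-type cyclins, had 12.5, 9.91, 11.7, 14.3 and 8.72 CPM after 6 hours against 11.42 to 14.25 CPM in controls, with overlap. Rbl1, a relative of the retinoblastoma protein (-1.70), and Lin9, a subunit of MuvB (-1.24), fell too. After 4 days Foxm1, a factor that drives mitotic genes, had 23 counts against 3, a ratio of 7.57 (2.29 to 39.4), and the E2F repressor E2f8 27 against 2, a ratio of 13.3 (3.35 to 116). Lower after 4 days were Wee1, the kinase that restrains CDK1 (-1.11), Tfdp2 (-0.77) and Lin9 (-0.70, lost in 6 of 10 fits without 1 mouse).

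Other genes of the same phases, outside the 48, were counted from 2 wider lists. Of 56 tested G2/M genes, 1 was called higher and 8 lower after 6 hours (median -0.61), where 15.2% and 13.1% of all genes were. The 8 lower calls were near that share of all genes. After 3 days 21 were higher and 1 lower (median 1.18), where 13.0% and 11.7% of all genes were. After 4 days 16 were higher and 2 lower (median 0.87), where 14.7% and 15.0% were. The kinetochore gene Ska1 had 20 counts against 0 after 4 days, at least 6.58-fold higher, and the spindle gene Dlgap5 16 against 0, at least 5.27-fold higher. Pbk, a mitotic kinase, had 27 against 2, a ratio of 13.3 (3.35 to 116). Lower after 4 days were the tubulin gene Tuba1b (-0.49) and Pttg1, securin (-0.46). After 6 hours the called genes with the largest changes were Aspm (-2.27, lost in 8 of 10 fits without 1 mouse), Sgo2a (-2.22) and Ncapd2 (-1.41), with Tubb5 (0.68) higher.

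Of 51 tested G1/S and S phase genes, 13 were called lower after 6 hours (median -0.66), where 13.1% of all genes were. None was called higher by edgeR, where 15.2% were, and 1 was higher at an unadjusted p below 0.05. After 1 day 10 were lower, where 11.2% of all genes were. After 3 days 6 (11.8%) were higher and 4 (7.84%) lower (median -0.05), where 13.0% and 11.7% of all genes were. After 4 days 7 (13.7%) were higher and 5 (9.8%) lower (median -0.09), where 14.7% and 15.0% were. The shares after 3 and 4 days, and the medians then, were near or under those of all genes. Gmnn, the inhibitor of origin licensing (-1.90), and Brca2 (-1.83), of recombination repair, fell after 6 hours. After 4 days Brca1 (2.84) rose, while Rfc3 (-1.17) and Rpa3 (-0.96), of the replication fork, were lower. Brca1 had 4 counts over the control mice and 75 over all libraries, so its fold change rests on few reads.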

How the data were processed

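RNA was extracted from 1 iBAT pad of each of 35 mice, and 3′ end libraries were made with QuantSeq 3′ FWD. Per the labels and the study's methods, the authors aligned reads with STAR 2.6.1d to GRCm38 and counted them with HTSeq 0.11.2, and they deposited raw counts per gene for each library, without normalization. The strand setting of the counting was not given in the sources used here, so reads of genes that overlap on opposite strands may be mixed: 14 members overlap an exon on the other strand, 3 one on the same strand, and 9 share at least 20% of the 50-base words of their last 400 bases with another gene. Gene symbols were matched to 55154 of the 55421 gene identifiers.

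Counts as deposited were tested with edgeR 4.0.16 (glmQLFit and glmQLFTest, limma 3.58.1, R 4.3.3), with TMM scaling and a separate fit for each comparison of 5 against 5 mice. A gene was kept if its counts over the 35 libraries came to 35 or more. Benjamini-Hochberg adjustment ran over all 16928 genes kept, with a threshold of 0.05. Libraries held 3846016 to 6047247 counts, so 1 read was worth 0.165 to 0.26 CPM before TMM scaling. The CPM given here were scaled by TMM, and sums are over the members of a role. Each library is another mouse, so the p-values measure the spread between mice. Mitochondrial transcripts took 33.61 to 46.19% of counts and Gm42418, a transcript that overlaps a ribosomal RNA gene, 7.81 to 16.27%. Genes detected per library ranged from 17953 to 20246 in controls, from 16327 to 19603 after 6 hours and from 16080 to 17017 after 5 days.

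Members, gene lists and cell type markers were chosen with earlier results of these data known. Named with values were the 8 mitosis and 8 S phase members with the most counts, all D-type cyclins, Stmn1 and Hmgb2, every member called lower, the largest change per role and comparison, and members that a count turns on. From the wider lists, at most the 3 called genes with the largest changes per direction after 6 hours and after 4 days were named, and all called CDK inhibitors; some genes that this rule names are not reported here. Alternatives were RLE size factors, library size only, DESeq2 1.42.0, filterByExpr, no filter, all 7 groups in one fit, a replicate block, leaving out each mouse, and sums without their most counted member. The scripts were tested on simulated data. Replicate numbers are shared between groups, but same-numbered mice did not deviate together: correlations of their deviations ran from -0.245 to 0.129 over 40 pairs, 3 of them over 0.1, so no block was used. Promoter windows came from RefSeq (GRCm38.p6) and gene positions from a GRCm38 annotation (Python 3.11.15, pandas 2.3.3, matplotlib 3.10.9).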

Additional observations from a re-analysis of the deposited data

Results flagged for a closer look

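In groups of 5 mice, a value was singled out where its gap to the nearest other mouse was more than 0.71 of the whole range (Dixon's 95% limit). Of 217 sets of 5 values examined, 14 had such a mouse, and chance singles out about 1 set in 20. High values were those of Mcm7 in mouse 1 after 5 days (31.6 CPM against 11.9 to 16.9 in the others), Ccnd2 in control mouse 1 (87.2 against 69.8 to 73.7), Stmn1 in mouse 4 after 1 day (4.12 against 0.367 to 0.937) and in mouse 1 after 5 days (5.67 against 0.59 to 1.97), and Ube2c in mouse 5 after 5 days (5.43 against 3.05 to 3.52). Low values were those of Kif23 in mouse 3 after 5 days (0.661 against 3.05 to 3.54) and Hmgb2 in mouse 5 after 1 day (0.927 against 2.2 to 2.62). The remaining 7 rest on few reads: Ccnb1 in mouse 5 after 6 hours (0.364, others 0) and in mouse 4 after 1 day (0.243, others 0), Rrm2 in mouse 5 after 6 hours (0.364, others 0), in mouse 1 after 1 day (1.12, others at most 0.232) and in mouse 2 after 2 days (2.34, others 0.262 to 0.848), Tk1 in mouse 5 after 1 day (2.78, others at most 0.562), and Uhrf1 in mouse 1 after 6 hours (1.04, others at most 0.221).

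Cdk1, Ube2c, Mcm7, Rrm2 and Tk1 were called lower than RT after 6 hours and higher than RT later, and of these Cdk1 alone was also called lower after 1 day. The groups of 3 days and 1 day were compared directly, and the log2 fold change was 3.46 ± 0.58 for Cdk1 (edgeR adjusted p = 0.000492), 1.81 ± 0.49 for Ube2c (adjusted p = 0.0229), 1.11 ± 0.22 for Mcm7 (adjusted p = 0.00258) and 2.92 ± 0.74 for Rrm2 (adjusted p = 0.0152), higher in 5 of 5 mice for each. Tk1 was not called in that comparison (1.89 ± 0.63, adjusted p = 0.0692). The later groups were not compared directly with the 6-hour group.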

How the results depend on the processing

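Low counts are the main limit: filterByExpr, which drops low genes, tested 12 to 23 of the 48 members. It called 3 lower after 6 hours, where 2225 of all 10593 genes it kept were, and 2 lower after 1 day, where 1901 of 10658 were. It called 3, 13, 12 and 6 higher after 2, 3, 4 and 5 days, where 1748 of 10629, 1982 of 10827, 2140 of 11048 and 2167 of 10733 were. After 3 days 9 were higher than after 1, where 734 of 10538 genes were. That filter keeps a low gene only where 1 group is high, so the later higher counts can include members kept by their cold values. With library size in place of TMM, which shifted the median of all genes by -0.144 to -0.253 in comparisons with RT, 1 was higher and 11 lower after 6 hours and 8 lower after 1 day. Of all 16928 genes, 1362 were then higher and 3795 lower after 6 hours, and 3430 lower after 1 day, so the lower members were not in excess of all genes. With all groups in one fit 1 was higher after 6 hours, where 2212 of all 16928 genes were. The replicate block, which pairs mice by number only, called 3 lower after 1 day, where 1739 of all genes were, and moved no other count by over 1.5 times. Without mice 1 and 2, chosen after seeing the data, 1 was higher after 2 days, where 1726 of all genes were. Leaving out each mouse gave 2 to 3 higher and 5 to 8 lower after 6 hours, 3 higher and 3 to 6 lower after 1 day (3 without control mice 4 or 5 or cold mice 2 or 5), 3 to 12 higher and 1 lower after 2 days (3 without mouse 1, 5 without control mouse 2), 21 to 25, 23 to 27 and 16 to 24 higher after 3, 4 and 5 days, 16 to 22 higher after 3 days than after 1, and 0 in the other directions and comparison. Of 116 single calls none reversed, and DESeq2 lost 3, library size only 11, one fit 7, no filter 2 and the block 11. The log2 ratio of the mitosis sum was -1.19 after 6 hours with library size only and -0.69 without Cenpa (added after seeing the data), and 1.96 after 3 days without Cenpa. That of the S phase sum was -0.45 after 6 hours without Rrm1 and, with library size only, 0.65 after 3 days. That of the D-type cyclins was 0.17, 0.45, 0.37 and 0.15 after 6 hours and 3, 4 and 5 days with library size only, and 0.86, 1.18, 1.10, 0.91, 0.92 and 0.78 at the 6 times without Ccnd2. That of Stmn1 and Hmgb2 was 0.95, 1.10, 1.57 and 1.62 after 1, 2, 3 and 5 days without Hmgb2. The causes were not tested.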
